A study of Homo sapiens with 32 samples.

Results

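The COUP-TF genes are the nuclear receptor genes NR2F1, NR2F2 and NR2F6, and with them was taken NR2F1-AS1, the long non-coding RNA transcribed from the opposite strand at the NR2F1 locus. The members were chosen by gene symbol alone, and all 4 were found among the 28278 symbols of the count tables and, by Ensembl gene, among the 60107 genes of the knockdown table. RNA was measured by RNA-seq in Ewing sarcoma lines, mostly A673, in 32 libraries. The study asked how loss of STAG2, a subunit of cohesin, changes transcription in these cells. NR2F1 belongs to the survival signature that the study chose partly on these A673 libraries, so its direction here is not independent evidence for that choice.

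In A673, STAG2-proficient cells were the parental line and a clone that carries a doxycycline-inducible Cas9 (iCas9) and unedited STAG2, called the WT clone. All A673 knockout (KO) clones were derived from that WT clone and carry iCas9 too, so the edited and unedited clones share the Cas9 insertion while the parental line lacks it. Experiment 1 held 3 STAG2-proficient libraries (2 of the WT clone, 1 parental) and 2 STAG2 KO libraries, called 5 and 24 after their columns. These are not the clone numbers of the labels, 1 and 4, so number 5 of experiment 1 is not to be read as clone 5 of experiment 2. In experiment 2 there were 3 STAG2-proficient libraries (2 of the WT clone, 1 parental) and 3 libraries each of STAG2 KO (numbered 2, 3 and 5), EZH2 KO and SUZ12 KO clones. Experiment 3 held 1 parental and 1 WT clone library and 3 libraries labelled STAG1 KO (n1, n5 and n7). Experiment 4 held 3 libraries of A673 cells given an siRNA to STAG2 (siSTAG2) and 3 of mock transfected cells (siC). Further libraries, 1 of each kind, came from SK-N-MC cells with STAG2 (WT) and after its knockout, and from A4573 cells, which lack STAG2 as labelled WT, and a clone in which STAG2 was restored (STAG2 KI). Each edited library stands for a single clone, and the labels do not say whether libraries of the WT clone or of the knockdown came from separate cultures, so that p-values measure the spread between these libraries only.

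COUP-TFs are orphan nuclear receptors. They bind DNA as homodimers, or as heterodimers with retinoid X receptors (RXRs), at pairs of short hormone response elements, and they often repress transcription by recruiting corepressors, although they can activate genes as well. NR2F1 (COUP-TFI) patterns the developing cortex and acts in neural crest cells, NR2F2 (COUP-TFII) acts in mesenchyme, vein identity and angiogenesis, and NR2F6 (EAR2), the most divergent of the paralogs, is known as a repressor in T cells. Ewing sarcoma cells are thought to come from a mesenchymal or neural crest cell.

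On GRCh38, NR2F1 (ENSG00000175745) lies on chromosome 5 from 93583222 to 93594611 on the plus strand. NR2F1-AS1 (ENSG00000237187) spans 93360779 to 93585649 on the minus strand of the same chromosome, so the NR2F1 start lies inside its annotated span, and the exons of the pair share 158 bases, 3.61% of the exonic bases of NR2F1. Since the libraries were non-directional, reads in those shared bases cannot be assigned to a strand. NR2F2 (ENSG00000185551) lies on chromosome 15 from 96325938 to 96340263 on the plus strand. NR2F6 (ENSG00000160113) lies on chromosome 19 from 17231883 to 17245919 on the minus strand.

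NR2F1 and NR2F1-AS1 are the members that moved together, and the DNA in front of their starts is therefore shown. RefSeq (GRCh38.p14) gave start sites for 3 of the 4 members, with 2 for NR2F1 and 5 for NR2F1-AS1, and NR2F6 had no entry. The sequences are the 250 bases before the NR2F1 start at smallest coordinate, position 93583222, and before the nearest NR2F1-AS1 start at a smaller coordinate, position 93581219, each 5' to 3' on its own strand; these starts are 2003 bases apart and point away from each other. Capitals mark GGAA, the core element of ETS factors such as EWS::FLI1, and AGTTCA, a variant of the AGGTCA element that COUP-TFs bind, on either strand.

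NR2F1, chr5:93582972-93583221, plus strand: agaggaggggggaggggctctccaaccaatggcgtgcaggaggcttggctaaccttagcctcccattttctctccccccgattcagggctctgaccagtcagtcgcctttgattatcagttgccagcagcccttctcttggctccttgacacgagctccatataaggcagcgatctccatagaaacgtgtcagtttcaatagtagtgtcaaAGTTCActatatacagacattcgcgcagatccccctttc

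NR2F1-AS1, chr5:93581220-93581469, minus strand: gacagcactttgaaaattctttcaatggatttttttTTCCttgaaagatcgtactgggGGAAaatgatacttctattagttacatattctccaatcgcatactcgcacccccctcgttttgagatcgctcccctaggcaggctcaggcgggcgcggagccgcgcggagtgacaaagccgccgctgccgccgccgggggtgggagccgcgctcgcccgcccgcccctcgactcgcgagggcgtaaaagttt

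The NR2F1 sequence is 52.4% G or C and held 0 matches to GGAA and 1 to AGTTCA. The NR2F1-AS1 sequence is 57.2% G or C and held 2 matches to GGAA, 1 on each strand. AGGTCA, searched on both strands as were the others, was in neither sequence, nor was a run of 4 GGAA. Of the same 250 bases before 35116 RefSeq starts, GGAA was in 92.7%, AGGTCA in 12.1%, AGTTCA in 8.80% and the run of 4 GGAA in 0.0199%. AGGTCA and AGTTCA were added to the search after the values had been seen, and a match is a description of letters, not of a bound site.

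The targeted genes were checked first. STAG2 RNA was 250 to 349 CPM (the count over a library size scaled by TMM across all 26 libraries with counts) in the STAG2-proficient libraries of experiments 1 and 2. In the STAG2 KO libraries it was 43.8 (number 5) and 189 (number 24) in experiment 1 and 60.7 to 70.3 in experiment 2, below every proficient library. EZH2 RNA was 28.6 to 56.2 CPM in EZH2 KO against 167 to 190 in the controls of experiment 2, and SUZ12 RNA 11.2 to 20.8 in SUZ12 KO against 58.3 to 64.8. STAG1 RNA in the libraries labelled STAG1 KO was 62.0 CPM in n1, between the control values of 57.5 and 68.7, and 15.1 and 33.0 in the other two. Of the Ewing sarcoma markers, CD99 was listed at 0 in each of the 26 libraries with counts but was detected and tested in the knockdown table of the same line, so that its 0 is not to be read as absent expression, and NKX2-2 was at 25.7 to 148 CPM in the 22 A673 libraries, and STEAP1 and LIPI at no less than 67.9 and 54.1 CPM. Leukocyte, endothelial and epithelial markers were low in these 22 libraries, with PTPRC at 0 to 0.222, PECAM1 at 0.263 to 4.11 and EPCAM at 0 to 2.24 CPM. Totals ran from 15734628 to 20663679 counts in the A673 libraries and from 29322507 to 32261248 in the SK-N-MC and A4573 libraries. Changes in RNA per cell and in the share of cells that express a gene cannot be told apart in these bulk libraries.

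NR2F1 was low in STAG2-proficient A673 cells and much higher in STAG2 KO clones. In experiment 1 its level was 1.57, 1.79 and 1.79 CPM (27, 34 and 34 counts) in the STAG2-proficient libraries, and 46.8 and 40.0 CPM (784 and 688 counts) in STAG2 KO 5 and 24. In experiment 2 it was 6.12 and 6.63 CPM in the WT clone and 1.09 CPM in parental cells (111, 107 and 20 counts), against 37.5, 19.5 and 21.2 CPM (666, 364 and 397 counts) in STAG2 KO 2, 3 and 5. Every STAG2 KO library thus lay above every proficient library, and the lowest of them was still well above the WT clone of experiment 2. In a fit of both experiments that allowed each its own baseline, NR2F1 rose 10.9-fold (log2 fold change 3.44, SE 0.52, adjusted p = 0.00162, edgeR quasi-likelihood test with Benjamini-Hochberg adjustment over 13574 genes).

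The level of NR2F1 in proficient cells was not the same in the 2 experiments. The WT clone held 1.57 and 1.79 CPM in experiment 1 but 6.12 and 6.63 in experiment 2, while parental cells held 1.79 and 1.09. NR2F1 rose 24.5-fold in experiment 1 alone (log2 4.61, SE 0.18, adjusted p = 0.00163), and in experiment 2 alone the log2 fold change was 2.48 (SE 0.62, adjusted p = 0.0747), which missed the threshold. With all 12 libraries of experiment 2 in 1 fit, so that the EZH2 KO and SUZ12 KO libraries lent their spread, NR2F1 rose in STAG2 KO by 2.50 on the log2 scale (SE 0.57, adjusted p = 0.0223). The STAG2 KO effects of the experiments differed by 2.12 on the log2 scale (SE 0.76, adjusted p = 0.110, edgeR interaction term), which did not pass the adjusted threshold. Of 13574 genes, 0 were called in that comparison, so the missed threshold does not show that the effects were alike. With the WT clone as the only control, NR2F1 rose by 3.10 (adjusted p = 0.00942).

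NR2F1-AS1 rose beside NR2F1. Its level was 0.233, 0.739 and 0.788 CPM (4, 14 and 15 counts) in the proficient libraries of experiment 1 and 5.74 and 5.70 CPM (96 and 98 counts) in STAG2 KO 5 and 24. In experiment 2 it was 0.716 and 0.806 CPM in the WT clone, 0.326 in parental cells, and 7.49, 2.25 and 10.9 CPM (133, 42 and 204 counts) in STAG2 KO 2, 3 and 5. The groups did not overlap, and the order of the STAG2 KO clones of experiment 2 was not that of NR2F1, since number 5 was highest for the antisense RNA and number 2 for NR2F1. NR2F1-AS1 rose 10.3-fold over both experiments (log2 3.37, SE 0.46, adjusted p = 0.00100), by 3.22 in experiment 1 alone (adjusted p = 0.0127) and by 3.47 in experiment 2 alone (adjusted p = 0.0421). With 1 library left out, the call over both experiments was kept each time, but that of experiment 1 alone was lost in 1 of 5 cases (adjusted p up to 0.0509) and that of experiment 2 alone in 4 of 6 (up to 0.221). The part of these reads that comes from the shared exonic bases was not tested.

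NR2F2, the most abundant paralog in A673, was close to its control level in STAG2 KO cells. It was at 325, 317 and 294 CPM in the proficient libraries of experiment 1 and at 327 and 415 in STAG2 KO 5 and 24. In experiment 2 it was at 192 and 181 CPM in the WT clone, 199 in parental cells, and 262, 225 and 249 in STAG2 KO 2, 3 and 5. Within each experiment the STAG2 KO libraries were the higher ones, but over both experiments the groups overlapped, as the control level itself differed between experiments. The fitted log2 fold change was 0.30 (SE 0.10, adjusted p = 0.0645), so NR2F2 was not called in the edgeR test, and DESeq2 gave 0.29 with an adjusted p of 0.0177.

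NR2F6 showed no shared direction. It was at 43.8, 43.3 and 48.5 CPM in proficient cells of experiment 1 against 51.2 and 67.5 in STAG2 KO 5 and 24, all higher. In experiment 2 it was at 61.7, 53.1 and 54.8 CPM in proficient cells against 55.6, 50.8 and 41.1 in STAG2 KO 2, 3 and 5, which overlapped. The log2 fold change was 0.05 over both experiments (SE 0.13, adjusted p = 0.859), 0.35 in experiment 1 alone (adjusted p = 0.116) and -0.22 in experiment 2 alone (adjusted p = 0.383).

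Of the 4 members, 2 were called in STAG2 KO cells, where 12.4% of the 13574 genes tested were called and 6.67% were called higher. The same 2 members had every STAG2 KO library above every proficient library, which held for 4.2% of all genes tested, while 4.27% had every STAG2 KO library below. In experiment 1 alone all 4 members had both STAG2 KO libraries above every control, a separation shown by 32.3% of 14145 genes, with 30.3% apart the other way, and 25.9% were called. In experiment 2 alone NR2F1, NR2F1-AS1 and NR2F2 were apart in that direction, as were 17.2% of 13383 genes, and 3.69% were called (1.83% higher, 1.86% lower), among them NR2F1-AS1.

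**Figure D1:**
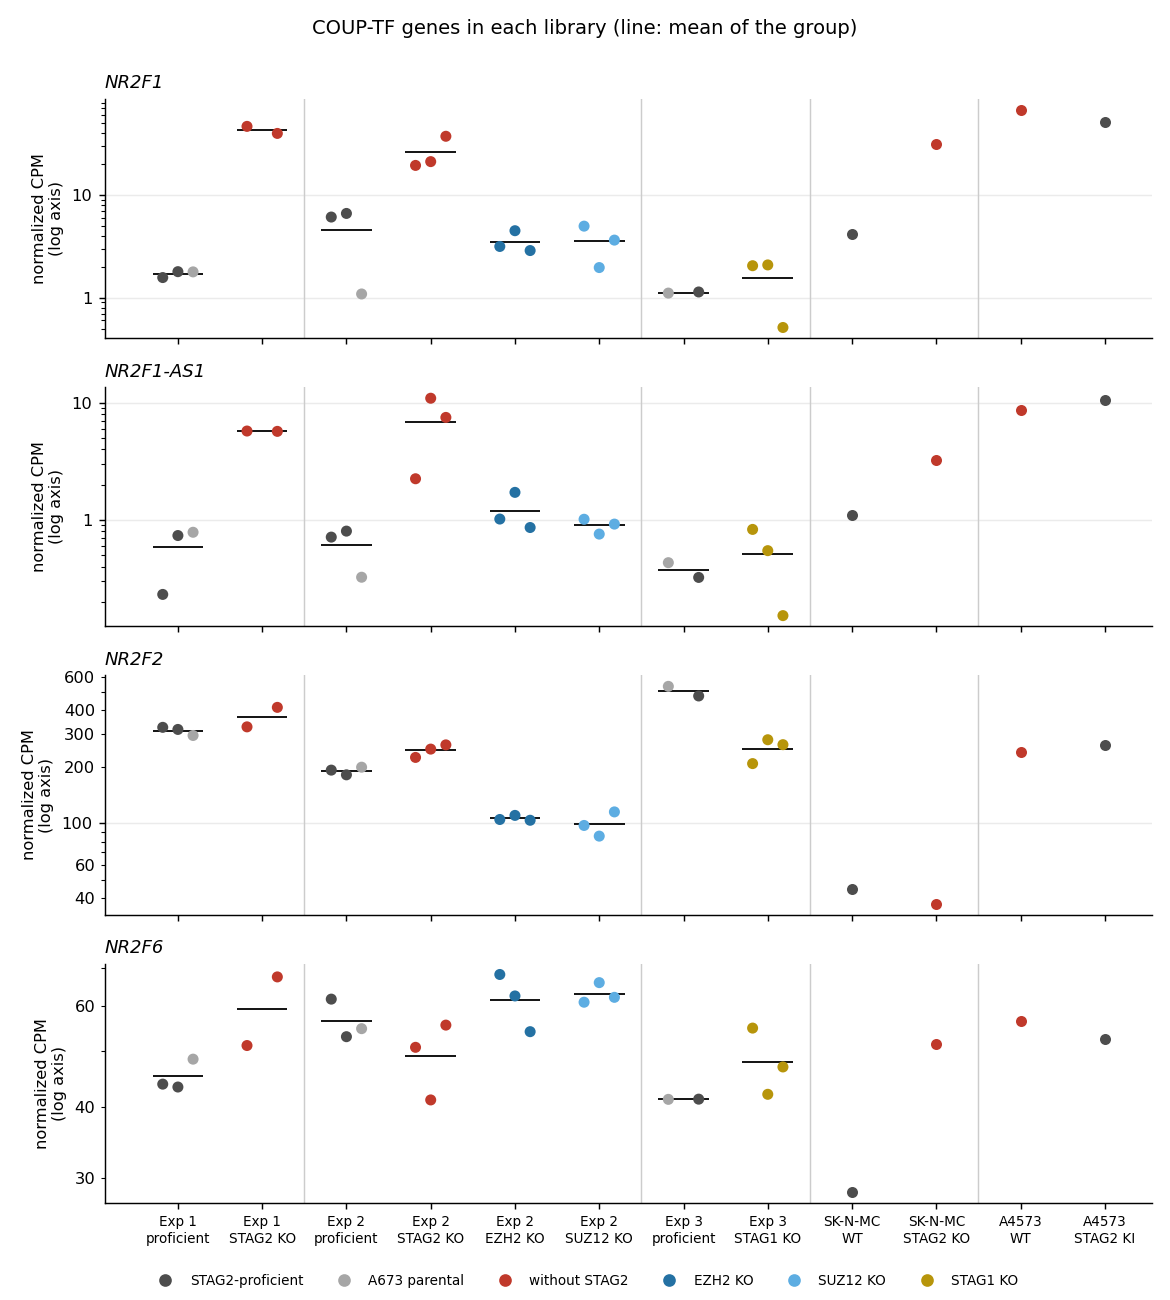
Level of each COUP-TF gene in every library with counts, in normalized CPM on a log axis; points are libraries, coloured by genotype, and lines are group means. NR2F1 and NR2F1-AS1 stand high in the 5 STAG2 KO libraries of A673, NR2F2 stands low in EZH2 KO and SUZ12 KO, and the NR2F2 controls differ between experiments.

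Per base of exon, NR2F2 was the leading paralog in proficient A673 cells. Its level was 38.8 ± 10.4 RPKM, the CPM divided by the exonic length in kilobases (SD, n = 6), against 19.2 ± 2.66 for NR2F6 and 0.722 ± 0.572 for NR2F1. In STAG2 KO cells the levels were 45.6 ± 11.9 for NR2F2, 20.1 ± 3.60 for NR2F6 and 7.53 ± 2.75 for NR2F1 (n = 5), in the same order. NR2F2 exceeded NR2F1 by 89.1-fold on average in the proficient libraries and by 6.44-fold in the STAG2 KO libraries, so that NR2F1 came nearer to its paralogs without reaching them.

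That shift was tested as a ratio within each library, which scaling between libraries does not touch. The log2 ratio of NR2F1 to NR2F2 counts was -6.59 ± 1.35 in proficient cells (range -7.64 to -4.76) and -3.21 ± 0.38 in STAG2 KO cells (range -3.55 to -2.80). Against NR2F6 it was -4.32 ± 0.98 in proficient cells and -0.76 ± 0.46 in STAG2 KO cells. Neither ratio overlapped between the groups. Within experiments the ratio to NR2F2 differed by 3.40 and that to NR2F6 by 3.62 on the log2 scale, each with p = 0.005 in a two-sided exact permutation test over 200 relabellings within experiments, the smallest p they can give (0.0075 after adjustment over 3 pairs). Both p-values rest on the NR2F1 counts already tested above in the same libraries, and are not separate evidence of its rise. The ratio of NR2F2 to NR2F6 was 2.27 ± 0.58 and 2.45 ± 0.24, overlapped, and differed by 0.21 (exact p = 0.175).

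**Figure D2:**
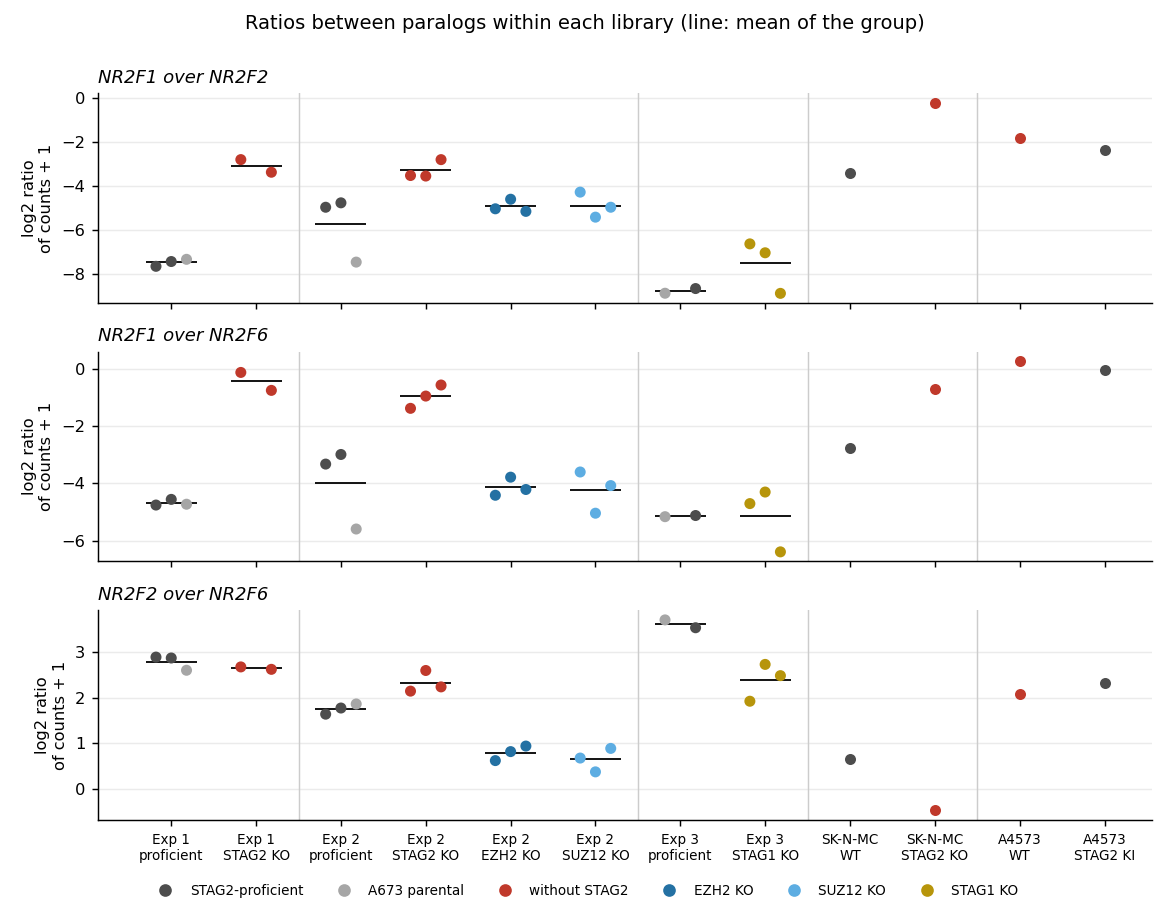
Log2 ratio between paralogs within each library, from counts plus 1, without correction for length; points are libraries and lines group means. The ratios with NR2F1 are higher in all 5 STAG2 KO libraries of A673 than in the proficient libraries of experiments 1 and 2, and NR2F2 over NR2F6 is lowest among A673 groups in EZH2 KO and SUZ12 KO.

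Knockdown of STAG2 asked whether transient loss has the same effect. The deposited values there are reads divided by a factor per library, and the whole reads behind them could be recovered. STAG2 fell from 1068, 992 and 1090 normalized reads in siC to 144, 180 and 153 in siSTAG2 (log2 fold change -2.72, adjusted p = 4.0e-18, limma). NR2F1 was at 42.9, 24.6 and 31.3 normalized reads (45, 25 and 30 recovered reads) in siC 1 to 3 and at 76.6, 71.4 and 72.5 (69, 77 and 75 recovered reads) in siSTAG2 1 to 3. The groups did not overlap, and NR2F1 rose 2.25-fold (log2 1.17 on the scale of value plus 1, SE 0.20, adjusted p = 0.00012, limma with Benjamini-Hochberg adjustment over 12060 genes), a smaller fold than in the KO clones; whether the folds differ was not tested, as the tables were normalized separately.

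NR2F1-AS1 was scarcely detected in the knockdown, with 5, 1 and 3 recovered reads in siC and 6, 9 and 9 in siSTAG2. It lay under the minimum mean of 10 and was not tested there; without that minimum its log2 fold change was 1.29 (SE 0.56, adjusted p = 0.134, limma). NR2F2 was at 4140, 4073 and 4111 normalized reads in siC and 4117, 3772 and 3652 in siSTAG2, which overlapped (log2 -0.10, SE 0.06, adjusted p = 0.248). NR2F6 was at 853, 914 and 814 in siC and 996, 999 and 934 in siSTAG2, without overlap. It rose 1.14-fold (log2 0.18, SE 0.07, adjusted p = 0.0480), a call at the threshold that was lost when the recovered reads were tested with edgeR (adjusted p = 0.0516) and when any of 5 of the 6 libraries was left out. NR2F1 and NR2F6 were thus the members called, where 20.5% of 12060 genes were called and 9.54% were called higher, and 17.4% had every siSTAG2 library above every siC library.

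**Figure D3:**
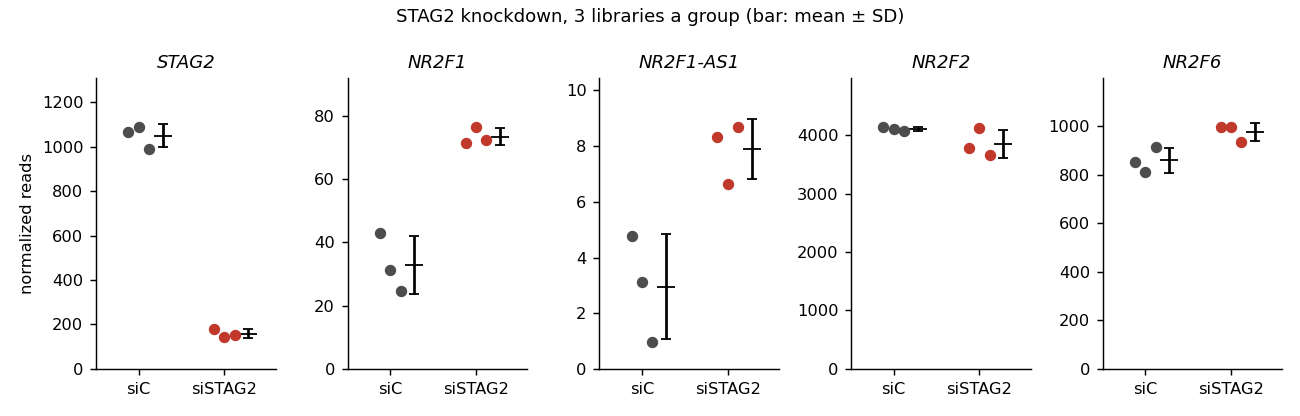
Normalized reads of STAG2 and the COUP-TF genes in the 3 siC and 3 siSTAG2 libraries, on linear axes from 0; bars give mean ± SD. The siSTAG2 values are above all siC values for NR2F1 and NR2F6, below them for STAG2, and mixed with them for NR2F2.

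KO of EZH2, the catalytic subunit of Polycomb repressive complex PRC2, and of SUZ12, a core subunit that the complex needs, gave no called change of NR2F1. It was at 3.16, 4.50 and 2.88 CPM in EZH2 KO and 4.99, 1.97 and 3.64 in SUZ12 KO. The controls of experiment 2 stood apart, at 1.09 CPM in parental cells and 6.12 and 6.63 CPM in the WT clone. All EZH2 KO and SUZ12 KO libraries lay between them, below the WT clone from which these clones were derived. The difference from the WT clone alone was not tested. The log2 fold changes were -0.36 (SE 0.56, adjusted p = 0.690) and -0.35 (SE 0.56, adjusted p = 0.684). With these standard errors, changes of NR2F1 of moderate size could not be detected. STAG2 KO libraries of the same experiment were higher than both, by 2.86 against EZH2 KO (SE 0.58, adjusted p = 0.00574) and by 2.85 against SUZ12 KO (SE 0.58, adjusted p = 0.00452), with no overlap.

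NR2F1-AS1 was at 1.02, 1.72 and 0.865 CPM (21, 31 and 18 counts) in EZH2 KO and at 1.02, 0.760 and 0.925 in SUZ12 KO. The EZH2 KO libraries all lay above the controls of 0.326 to 0.806 CPM, and the SUZ12 KO libraries did not. Its log2 fold changes, 0.99 (SE 0.58, adjusted p = 0.277) and 0.58 (SE 0.58, adjusted p = 0.509), did not pass the test. STAG2 KO exceeded EZH2 KO by 2.49 (adjusted p = 0.00998) and SUZ12 KO by 2.90 (adjusted p = 0.00385).

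NR2F2, in contrast, fell in PRC2-deficient cells. It was at 105, 110 and 104 CPM in EZH2 KO and 97.5, 85.5 and 115 in SUZ12 KO, against 192, 181 and 199 in the controls. All 6 KO libraries lay below all controls. The log2 fold change was -0.82 in EZH2 KO (SE 0.12, adjusted p = 0.00137) and -0.91 in SUZ12 KO (SE 0.12, adjusted p = 0.00057). The control libraries are shared by these comparisons; directly compared, EZH2 KO and SUZ12 KO differed in NR2F2 by 0.09 (SE 0.12, adjusted p = 0.999). STAG2 KO exceeded EZH2 KO by 1.18 (adjusted p = 0.0001) and SUZ12 KO by 1.27 (adjusted p = 5.7e-05). Markers moved beside NR2F2. PECAM1 rose in EZH2 KO (log2 1.95, adjusted p = 0.0329) and SUZ12 KO (2.25, adjusted p = 0.0130) and EPCAM in SUZ12 KO (3.52, adjusted p = 0.0248), both staying at or under 4.11 CPM, and PTPRC was at or under 0.222 CPM. Of the Ewing sarcoma markers, NKX2-2 and PAX7 rose in EZH2 KO (1.74 and 1.27) and SUZ12 KO (2.03 and 1.62), and LIPI fell in SUZ12 KO (-1.15). The part of these differences in the NR2F2 values was not tested. Ewing sarcoma markers also moved where NR2F1 rose. In STAG2 KO cells 1 of 6 tested rose and 1 fell, against 6.67% and 5.76% of all genes. These were NR0B1 (log2 0.78, adjusted p = 0.0086, edgeR) and CCND1 (-0.56, adjusted p = 0.0132), both with overlap. After knockdown 1 of 7 rose and 4 fell, against 9.54% and 11% of all genes. The part of these changes in the NR2F1 values was not tested.

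NR2F6 was at 68.2, 62.5 and 54.1 CPM in EZH2 KO and at 61.0, 66.0 and 62.2 in SUZ12 KO, overlapping the controls of 53.1 to 61.7. Its log2 fold changes were 0.15 (SE 0.13, adjusted p = 0.477) and 0.19 (SE 0.13, adjusted p = 0.342). STAG2 KO libraries all lay below SUZ12 KO libraries for NR2F6, with a difference of -0.39 (SE 0.13, adjusted p = 0.05) that lay just above the threshold. The difference from EZH2 KO was -0.35 (adjusted p = 0.0854). Because NR2F2 was lower and NR2F6 was not, the order of the paralogs per base of exon was turned in PRC2-deficient cells. NR2F2 was at 0.714 ± 0.0783 times NR2F6 in EZH2 KO and 0.649 ± 0.114 times in SUZ12 KO, against 1.39 ± 0.107 times in the controls of experiment 2 (n = 3 each). The turn depends on the exonic lengths used, 6476 bases for NR2F2 and 2655 for NR2F6, of which 8.32% are shared with another gene. In counts NR2F2 stayed above NR2F6 in every EZH2 KO and SUZ12 KO library (log2 ratio 0.37 to 0.94).

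Of the 4 members, 1 was called in EZH2 KO and 1 in SUZ12 KO, NR2F2 in each and lower, where 3.69% and 5.87% of 15130 genes were called lower and 15.7% and 20.6% were called in all. Every library of EZH2 KO lay below every control for 20.2% of genes, and above for 25.4%; in SUZ12 KO 23.5% lay below. Against EZH2 KO and SUZ12 KO, STAG2 KO libraries were called higher for 3 of the 4 members, as were 8.04% and 11.2% of genes (20.4% and 25.8% called in either direction), with every library apart and higher for 15.4% and 18.4%. EZH2 KO and SUZ12 KO libraries, set against each other, gave no called member, where 0.00661% of genes were called, and 5.14% and 4.91% were apart in one or the other direction. NR2F6 lay lower against SUZ12 KO with no overlap, as did 19.1%.

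**Figure D4:**
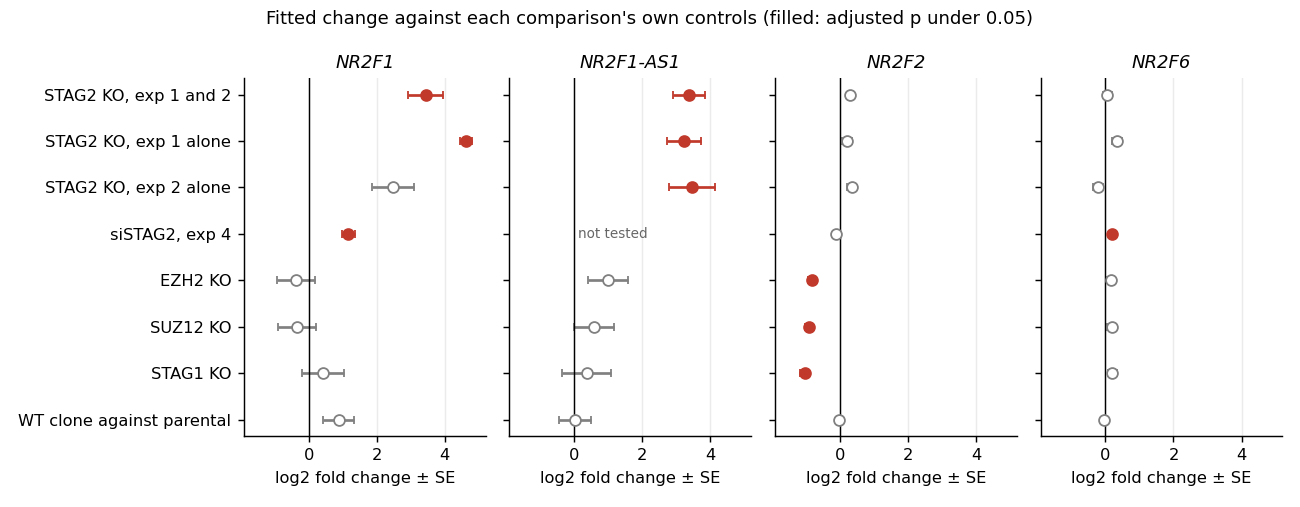
Fitted log2 fold change ± SE of each member against the controls of each comparison; filled points passed the adjusted threshold of 0.05, and NR2F1-AS1 was not tested after knockdown. NR2F1 rises after STAG2 KO and knockdown, and NR2F2 falls in EZH2 KO, SUZ12 KO and STAG1 KO.

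In experiment 3, which asked whether the paralog of STAG2 matters in the same way, NR2F1 was low in all 5 libraries. It was at 1.11 CPM in parental cells and 1.14 in the WT clone (23 and 21 counts), and at 2.05, 2.09 and 0.512 CPM (32, 38 and 10 counts) in the libraries labelled STAG1 KO n1, n5 and n7. NR2F1-AS1 was at 0.434 and 0.325 CPM against 0.833, 0.549 and 0.154, the last from 3 counts. Both overlapped, with log2 fold changes of 0.44 (SE 0.62, adjusted p = 0.705) and 0.37 (SE 0.72, adjusted p = 0.787).

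NR2F2 was lower in the libraries labelled STAG1 KO. It was at 537 CPM in parental cells and 478 in the WT clone, and at 208, 279 and 263 CPM in n1, n5 and n7. The groups did not overlap, and NR2F2 fell by 1.04 on the log2 scale (SE 0.14, adjusted p = 0.0265). The controls of experiment 3 were themselves the highest of the A673 libraries with counts. The STAG1 KO levels lay within the range of 181 to 325 CPM of the STAG2-proficient libraries of experiments 1 and 2. The call was lost without the parental library (adjusted p = 0.255), without the WT clone library (0.134) and without n7 (0.0534), and it was kept without n1, whose STAG1 RNA was at control level (log2 -0.91, adjusted p = 0.0166). NR2F6 was at 41.2 and 41.3 CPM in controls and 54.9, 42.1 and 47.0 in n1, n5 and n7, all higher (log2 0.20, SE 0.13, adjusted p = 0.389). NR2F2 was the 1 member called, where 5.27% of 14373 genes were called (2.77% higher, 2.5% lower), and 23.3% of genes had every STAG1 KO library below, as 23.3% had above, the controls.

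The effect of STAG2 KO minus that of the libraries labelled STAG1 KO was fitted over the 16 libraries of experiments 1 to 3; STAG1 RNA itself was not called lower in that group (log2 -0.80, adjusted p = 0.376). For NR2F2 it was 1.29 (SE 0.17, adjusted p = 0.00077), with the 2 effects of opposite sign, and 1.17 without n1. The STAG2 KO effect on NR2F2 was not called by itself (log2 0.30, adjusted p = 0.0645, edgeR). The STAG1 KO effect, -1.04, rested on 2 controls at 537 and 478 CPM, above the 181 to 325 CPM of the proficient libraries of experiments 1 and 2. The difference between the effects was 2.98 for NR2F1 (SE 0.94, adjusted p = 0.0832), 2.94 for NR2F1-AS1 (SE 0.89, adjusted p = 0.0695) and -0.19 for NR2F6 (SE 0.24, adjusted p = 0.754), of which none passed. NR2F2 was thus the 1 member called, as were 6.11% of 14696 genes, with 2.36% in that direction and 3.75% in the other. Between the WT clone and parental cells, over experiments 1 to 3, the log2 difference was 0.89 for NR2F1 (SE 0.46, adjusted p = 0.376), 0.02 for NR2F1-AS1, -0.04 for NR2F2 and -0.03 for NR2F6, and none of the 4 was among the 2.72% of genes called (1.76% higher in the WT clone).

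In the SK-N-MC and A4573 lines each value comes from 1 library, so there is no test, and the intervals given are exact 95% intervals of the ratio of counts that cover counting error only. In SK-N-MC, NR2F1 was at 4.18 CPM (141 counts) with STAG2 and 31.8 CPM (988 counts) in STAG2 KO cells. NR2F1-AS1 was at 1.10 and 3.25 CPM (37 and 101 counts). The log2 ratios, without minus with STAG2, were 2.90 for NR2F1 (2.66 to 3.19), or 7.48-fold, and 1.51 for NR2F1-AS1 (1.0 to 2.14), both above the value of 1 that 10.2% of 16413 genes exceeded. NR2F1 ranked 252 among these genes.

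NR2F2 moved little in SK-N-MC, from 44.9 to 37.3 CPM (log2 -0.27, -0.38 to -0.16), and NR2F6 was at 28.4 with and 51.6 CPM without STAG2 (log2 0.85, 0.74 to 0.97). Per base of exon, NR2F1 went from 0.954 to 7.25 RPKM and NR2F2 from 6.93 to 5.76, so that NR2F1 stood above NR2F2 in the SK-N-MC STAG2 KO library. Without correction for length NR2F1 stayed below NR2F2 there (988 and 1160 counts). STAG2 RNA itself was at 286 CPM with and 181 CPM without. In the same pair the leukocyte marker PTPRC went from 2.94 to 57.1 CPM, the epithelial marker EPCAM from 0.801 to 9.20 and PAX7 from 34.6 to 97.3, while PECAM1 was at 0.148 and 0.225; the part of such differences in the NR2F1 ratio was not tested.

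A4573 cells, which lack STAG2 from the outset, held the highest NR2F1 of the series. It was at 67.5 CPM (2182 counts) in WT cells and still at 51.4 CPM (1683 counts) in STAG2 KI cells. The log2 ratio, without minus with STAG2, was 0.35 (0.26 to 0.45), or 1.28-fold, which did not reach the value of 1 that 6.78% of 16124 genes exceeded, and NR2F1 ranked 4041. NR2F1-AS1 was at 8.69 and 10.5 CPM (log2 -0.31, -0.54 to -0.08), opposite in sign to NR2F1. NR2F2 was at 239 and 263 CPM (log2 -0.18, -0.22 to -0.13) and NR2F6 at 56.5 and 52.6 CPM (log2 0.06, -0.03 to 0.16). STAG2 RNA was at 31.8 CPM without and 83.4 CPM with STAG2, and PTPRC, PECAM1 and EPCAM were at no more than 1.92 CPM. Of the Ewing sarcoma markers, PAX7 was nearly absent in A4573, at 0.124 CPM (4 counts) without and 0.397 CPM (13 counts) with STAG2. NKX2-2, NR0B1, STEAP1, LIPI and CCND1 were at no less than 50.2 CPM in both A4573 libraries.

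Across groups, NR2F1 means ran from 1.12 CPM in the controls of experiment 3 through 1.55 ± 0.899 in STAG1 KO, 1.72 ± 0.126 in the controls of experiment 1, 3.51 ± 0.866 in EZH2 KO, 3.53 ± 1.51 in SUZ12 KO and 4.18 in SK-N-MC WT to 4.61 ± 3.06 in the controls of experiment 2. Above a gap followed STAG2 KO of experiment 2 with 26.1 ± 9.94, the SK-N-MC STAG2 KO library and STAG2 KO of experiment 1 with a mean of 43.4, and then both A4573 libraries. Neighbours on the low side of the gap lay within each other's range, apart from the controls of experiment 1, which lay under EZH2 KO. NR2F2 means ran in another order, from 37.3 CPM in SK-N-MC STAG2 KO through 99.4 ± 14.9 in SUZ12 KO, 106 ± 3.44 in EZH2 KO, 191 ± 8.97 in the controls of experiment 2, 250 ± 37.1 in STAG1 KO and 312 ± 16 in the controls of experiment 1, to 508 in those of experiment 3. NR2F6 had the narrowest range, from 28.4 CPM in SK-N-MC WT to 68.2 in an EZH2 KO library.

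The genes around the members were described to see whether the rise of NR2F1 was shared along the chromosome. Within 2 Mb of the NR2F1 start, GENCODE lists 42 other genes, of which 8 were found by symbol in the count tables and 5 were tested in STAG2 KO and 1 was called higher, against 6.67% of all genes. MCTP1, which encodes a membrane protein with calcium-binding C2 domains and starts 1701.872 kb away, rose by 2.16 (adjusted p = 0.0059) with every STAG2 KO library above every control. The other 4 did not pass. MCTP1 also rose in EZH2 KO (log2 1.68, adjusted p = 0.0356) and SUZ12 KO (1.62, adjusted p = 0.0333), unlike NR2F1, and it was lower in the WT clone than in parental cells (log2 -0.91, adjusted p = 0.0365). FAM172A, 528.477 kb away, had log2 fold changes of -0.44 in experiment 1 (adjusted p = 0.0750) and 0.69 in experiment 2 (adjusted p = 0.0400). Of the nearest protein-coding genes, ARRDC3, 2199.905 kb away and so outside the 2 Mb, had a log2 fold change of -0.00 (adjusted p = 0.997). POU5F2, 158.378 kb away, held at most 4 counts in any library.

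Around NR2F2, 2 of 10 genes found by symbol were tested in STAG2 KO and none passed at an adjusted p under 0.05 in the edgeR test. NR2F2-AS1, its antisense neighbour, had a log2 fold change of 0.75 (adjusted p = 0.443) and shares no exonic base with it. Of the nearest protein-coding genes, ARRDC4 had log2 fold changes of -3.16 in experiment 1 (adjusted p = 0.118) and 4.36 in experiment 2 (adjusted p = 0.151), and it fell by 3.65 in the libraries labelled STAG1 KO (adjusted p = 0.0239) and rose by 4.25 in SUZ12 KO (adjusted p = 0.0435). MCTP2, 2094.4 kb from the NR2F2 start and so outside the 2 Mb, held at most 64 counts in a library. It was too low for the fit over experiments 1 and 2, and it rose in EZH2 KO (adjusted p = 0.0155) and SUZ12 KO (adjusted p = 0.00564), where NR2F2 fell. Around NR2F6, 3 of the 77 genes tested were called in STAG2 KO, all lower, which is no larger a share than the 5.76% of all genes called lower. ISYNA1, the inositol phosphate synthase gene, fell by 1.21 on the log2 scale (adjusted p = 0.00422) with no overlap, and by 0.73 after knockdown (adjusted p = 5.2e-07). OCEL1, the nearest coding gene on one side, had -0.40 (adjusted p = 0.412).

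The pathway was then read from lists of partner and target genes. Of 9 RXR and related NR2 class receptors, partners or close relatives of COUP-TFs, 5 were tested in STAG2 KO cells and 1 rose, HNF4G (log2 1.88, SE 0.50, adjusted p = 0.0314), with overlap between the groups, against 6.67% of all genes called higher. HNF4G was not called in either experiment alone (adjusted p = 0.113 and 0.0688) or without any of 5 control libraries. After knockdown 0 of 4 passed in the limma test. The median log2 fold change of the list was -0.07 in STAG2 KO, against 0.04 over all genes.

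Of 15 corepressors and other COUP-TF interacting proteins, 13 were tested in STAG2 KO, where 1 rose and 1 fell, against 6.67% and 5.76% of all genes. BCL11B, a zinc finger protein first found through its binding to COUP-TFs, rose by 0.59 (adjusted p = 0.0139, with overlap), and RCOR1, the scaffold of the CoREST corepressor complex, fell by 0.71 (adjusted p = 0.00898, every KO library below every control). After knockdown BCL11B rose by 0.46 (adjusted p = 9.6e-07), TBL1X, a corepressor complex subunit, rose by 0.21 (adjusted p = 0.0203) and RCOR1 fell by 0.42 (adjusted p = 3.4e-05). In EZH2 KO, where NR2F1 was not changed detectably, ZFPM2 rose (log2 2.14) and BCL11A rose from near 0 counts in the controls. The list medians were -0.00 in STAG2 KO and 0.07 after knockdown.

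Among 20 genes tied to COUP-TFs as targets in other tissues, 15 were tested in STAG2 KO, where 0 rose and 5 fell, against 6.67% and 5.76% of all genes. With 1 library left out, the called targets numbered 4 to 9 (9 without STAG2 KO 5 of experiment 2). In experiment 1 alone 1 of 14 tested rose, E2F1 (log2 0.75), and 6 fell, against 12% and 13.9% of all genes. In experiment 2 alone E2F1 was at -0.53, with every KO library below every control. PAX6 (-1.97 and 0.95) and CDKN1B (-0.66 and 0.33) also had opposite signs in experiments 1 and 2. E2F1, PAX6 and CDKN1B were not called in experiment 2. The other targets called in experiment 1, CYP26B1, OTX2, SOX9 and VEGFA, had negative values in both. Over both experiments SOX9, a transcription factor of cartilage and neural crest, fell by 4.16 on the log2 scale (SE 0.44, adjusted p = 0.00024). CYP26B1, an enzyme that degrades retinoic acid, fell by 2.75 (SE 0.61, adjusted p = 0.0139). Both had every KO library below every control. ANGPT1, NOTCH1 and JAG1 fell by 0.80, 0.67 and 0.56, with overlap. The list median was -0.43, against 0.04 over all genes. After knockdown 4 of 14 fell and 0 rose, against 11% and 9.54% of all genes, with SOX9 at -1.21 (adjusted p = 6.8e-10), CYP26B1 at -1.80 (adjusted p = 1.7e-06), ANGPT1 at -0.73 (adjusted p = 0.0112) and VEGFA at -0.32 (adjusted p = 0.0189).

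The same target list was counted in the other knockouts, with no test between them. In EZH2 KO 6 of 17 rose and 2 fell, against 12% and 3.69% of all genes. CDKN1A (log2 2.86, adjusted p = 0.00135), NRP1 (2.02, adjusted p = 0.00101) and PAX6 (2.20, adjusted p = 0.0394) rose, CXCR4 rose from few counts, and ANGPT1 and JAG1 fell (-1.63 and -0.90). In SUZ12 KO 4 of 17 rose and 1 fell, against 14.7% and 5.87% of all genes. In the libraries labelled STAG1 KO, CDKN1A rose by 2.0 (adjusted p = 0.0405) and CXCR4 and VEGFA fell (-4.47 and -0.87), 1 and 2 of 17 tested, against 2.77% and 2.5% of all genes. The lists name genes from other tissues, and which of them the COUP-TFs regulate in Ewing sarcoma cells was not measured here.

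In each of the 22 A673 libraries with counts, log2 CPM was taken minus the mean of the controls of the same experiment. Genes with a pattern like that of NR2F1 were ranked by Pearson's correlation of these values over the 22 libraries, among 13573 genes. The highest were KCNJ12, a potassium channel gene (r = 0.91), NEK6, a mitotic kinase gene (r = 0.91), DOCK4, a guanine nucleotide exchange factor gene (r = 0.89), NR2F1-AS1 (r = 0.88) and CXADR, a cell adhesion receptor gene (r = 0.87). The paralogs ranked far lower, NR2F2 at 1595 (r = 0.53) and NR2F6 at 6588 (r = 0.10). These libraries fall into high STAG2 KO libraries and low others, share controls and experiments, and are a description without a test. In the knockdown libraries, which the ranking did not use, NEK6 rose by 0.69 (adjusted p = 2.8e-07, limma) and CXADR by 0.42 (adjusted p = 0.0093). KCNJ12 and DOCK4 were not called, with log2 fold changes of 0.19 (adjusted p = 0.646) and 0.44 (adjusted p = 0.172). Of all genes, 9.54% were called higher after knockdown.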

How the data were processed

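RNA was extracted from A673, SK-N-MC and A4573 cells and sequenced by the authors from non-directional, oligo-dT primed libraries. The authors' processing notes name TopHat2 2.0.0, Bowtie 0.12.7, SAMtools 0.1.16, FastQC and DESeq2, with hg38; the counting program and annotation are not given in the sources used here. For 26 libraries the deposited values are raw counts per gene symbol. For the knockdown the authors deposited a signal, reads divided by 1 factor per library, of which 100% of values above 0 came out as whole reads within 0.01 read; 6852340 to 8184632 reads per library were recovered, and 92 rows without a gene held 0.

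Groups came from the labels, and for 9 columns the name gave the group but not the library. Per-sample columns left out numbered 0. In R 4.3.3, counts were scaled by TMM, filtered with filterByExpr and tested with edgeR 4.0.16 (quasi-likelihood), with the experiment as a term for STAG2 KO and all 12 libraries of experiment 2 for EZH2 KO and SUZ12 KO. Knockdown values were tested with limma 3.58.1 on log2(value + 1) for genes with a mean of at least 10. Calls were made at a Benjamini-Hochberg adjusted p under 0.05 over all genes tested. In SK-N-MC and A4573, genes with at least 10 counts in a pair were compared on the log2 CPM scale after adding a prior count of 2. Paralog ratios used counts plus 1 and a two-sided exact permutation test within experiments. DESeq2 1.42.0 was an alternative. The edgeR and limma steps were tested on simulated data. Loci and neighbours are from GENCODE 44 on GRCh38, and promoter sequences from RefSeq GRCh38.p14. Intervals cover counting error only, since reads without molecular identifiers are not independent molecules.

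The members, the gene lists and the tests were chosen with earlier results of these data known. Besides the members and targeted genes, genes were named when they were the at most 3 largest called changes of a list or neighbourhood with groups apart, the nearest coding genes, or the 5 genes most like NR2F1. Called list members with overlapping groups were named after their values were seen, as were KCNJ12, NEK6, CXADR and DOCK4 in the last comparison. A result among the corepressors is not reported here.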

Additional observations from a re-analysis of the deposited data

Results flagged for a closer look

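The effect of STAG2 KO on NR2F2 differed from that of the libraries labelled STAG1 KO, of which n1 held STAG1 RNA at control level, by 1.29 on the log2 scale, the difference itself being tested (SE 0.17, adjusted p = 0.00077, edgeR). The STAG2 KO effect was not called by itself (log2 0.30), and the STAG1 KO effect rested on 2 controls with the highest NR2F2 of the A673 libraries with counts. NR2F1-AS1 moved in opposite directions in the isogenic lines, with a log2 ratio (without minus with STAG2) of 1.51 in SK-N-MC and -0.31 in A4573, from 1 library each, and that difference was not tested. None of the 12 sets of 5 to 8 values examined for a stray library held one beyond Dixon's 95% critical value. The sets pooled experiments and overlapped, and the gap of a single value cannot show 2 libraries that stray together. For NR2F1 the WT clone libraries of experiment 2, at 6.12 and 6.63 CPM, were such a pair, and the gap was 0.0930 of the range.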

How the results depend on the processing

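Of 182 values under other settings, 154 kept their direction, their side of the threshold and, for counts, their size, as did 480 of 525 with a library left out. NR2F1 and NR2F1-AS1 kept their calls in STAG2 KO when any of the 11 libraries was left out (3.24 to 3.70 and 3.09 to 3.55 on the log2 scale). With experiment 2 alone NR2F1 had 2.48 and was not called, and NR2F6 turned to -0.22, or -0.20 with all libraries of experiment 2 in the fit. NR2F2 was called in STAG2 KO by DESeq2 (0.29). Called receptors numbered 0 without the experiment term, in either experiment alone and with the WT clone as the only control, and 2 with all of experiment 2 in the fit. Called corepressors numbered 1 without the experiment term and with the WT clone alone. Called targets numbered 3 without that term, 2 in experiment 2 alone and 3 with all of experiment 2. DESeq2 called STAG2 KO minus STAG1 KO for NR2F1 (2.99) and NR2F1-AS1 (2.95), and NR2F6 lower than in SUZ12 KO (-0.41); scaling by library size alone called NR2F6 in SUZ12 KO (0.37). After knockdown NR2F6 lost its call without a minimum value and on recovered reads (both 0.18). Ratios of NR2F1 to NR2F2 and NR2F6 were 4.37 and 4.23 in experiment 1 and 2.43 and 3.0 in experiment 2, where an exact p cannot go below 0.1, and NR2F2 to NR2F6 turned to -0.14 in experiment 1. TMM within the pair gave NR2F2 in A4573 as -0.10. Within 1 Mb of NR2F1 0 genes were called, and Spearman's rank correlation shared 2 of its 5 most similar genes. The causes were not tested.

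With 1 library left out, NR2F2 ran from 0.24 to 0.37 in STAG2 KO, called without STAG2 KO 5 of experiment 1 or of experiment 2, and NR2F6 from -0.083 (without STAG2 KO 24) to 0.13. Calls ran from 0 (without any of 5 control libraries, HNF4G being lost) to 1 for receptors, 1 (without STAG2 KO 5 of experiment 1 or a WT clone library of experiment 2) to 3 for corepressors and 4 to 9 for targets (9 without STAG2 KO 5 of experiment 2). NR2F2 in STAG1 KO ran from -1.12 to -0.91. STAG2 KO minus STAG1 KO ran from 2.53 to 3.26 for NR2F1 and 2.48 to 3.46 for NR2F1-AS1. WT clone minus parental ran from -0.030 to 1.63 for NR2F1, -0.57 to 0.54 for NR2F1-AS1, -0.13 to 0.0090 for NR2F2 and -0.079 to 0.039 for NR2F6. NR2F6 against SUZ12 KO ran from -0.48 to -0.29. EZH2 KO minus SUZ12 KO ran from -0.30 to 0.32 for NR2F1, -0.0018 to 0.20 for NR2F2 and -0.12 to 0.048 for NR2F6. NR2F6 after knockdown ran from 0.14 to 0.23.

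In the knockdown, siC and siSTAG2 libraries of 1 replicate number correlated by 0.0257, 0.0372 and 0.00402 in their deviations from group means. Those of different numbers correlated by -0.0305 to 0.00561. Whether the replicate numbers mark something shared cannot be told from so few libraries. With the replicate block NR2F1 had 1.17, NR2F2 -0.10 and NR2F6 0.18, and no call changed. With 4 to 15 counts in the controls, depth limits the folds of NR2F1-AS1.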
